A study of Notamacropus eugenii with 7 samples.

Results

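The miRNAs of tammar wallaby milk were compared between days 35 and 72 of lactation, 2 time points that both lie in phase 2A. Every miRNA listed in either of these 2 libraries was taken, which gave 85 of the 102 miRNAs listed anywhere among the 5 milk and 2 serum libraries of the series. The table names 346 miRNAs in all, and the others were not listed in any library. The milk of several lactating females was pooled before RNA extraction, that of 10 females at day 35 and of 5 females at day 72, and each pool was sequenced as 1 library. The later library is labelled day 75 but is reported as day 72, and is called day 72 here, while the other libraries are called by the days of their labels. The females were tammar wallabies of 2 breeding colonies, they were anaesthetised and given oxytocin for milking, and RNA was isolated from skim milk from which cells and fat had been spun out. Which colony gave which day, and the age of the females, is not given in the sources used here. With 1 library a day there is no replicate error, so differences are given as sizes without a test, and a difference between the days cannot be told apart from a difference between these 2 pools.

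MiRNAs are short RNAs that guide the repression of mRNAs through pairing of their seed, the bases near the 5′ end, so that miRNAs with a common seed form a family with overlapping targets. Many are transcribed together from genomic clusters, as are miR-200b with miR-429, miR-141 with miR-200c, and miR-182 with miR-183 and miR-96. In milk they are found largely in vesicles and in fat globules shed by the mammary epithelium. Marsupial young are born at an early stage of development, so that milk is their food while most organs are formed, and phase 2A is the first part of this time.

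The deposited value of a miRNA is the percent of all annotated miRNA reads of its library, called its share here, rounded to 3 decimals. An entry of 0 is a miRNA present at under 0.0005%, and an empty entry is an absent miRNA. The shares give no read counts, so the depth behind each is unknown from them, and a printed share is only as exact as its rounding. By the study's own read totals the later library held more miRNA reads than the earlier. Listed shares summed to 99.6% at day 35 and to 99.3% at day 72. As shares are parts of a whole, a change in an abundant miRNA moves the shares of all others, and fewer cells of a type and less miRNA secreted per cell cannot be told apart. The day 35 library stood apart at its lower end, where it had 0 miRNAs from 0.002% to 0.024%, and the counts that rest on this range are given with and without it.

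Mature miRNA sequences were not used here, but PCR primers designed by the authors were at hand for some of the miRNAs compared. Of these miR-148, miR-30a and miR-141 had larger shares at day 72 and miR-92 a smaller one. MiR-22 took 0.671% and 0.794%, a log2 ratio of 0.24. This ratio became -0.03 with miR-191 left out of the denominators and 0.55 when the log ratios were centred on their mean. As percent of all analysed reads it was 1.21, past 2-fold. The primers are shown because they hold parts of these miRNAs as DNA. A forward primer ends in the 5′ part of its miRNA, behind a few added bases, and is written 5′ to 3′. The stem-loop primers shared their first 44 bases in those for miR-22, miR-141, miR-30a and miR-92, and differed in their last 6, which pair with the 3′ end of the miRNA and are in capitals below.
miR-148 forward primer: ccgggctcagtgcactacag
miR-22 forward primer: ccaggcaagctgccagttg
miR-141 forward primer: cgcgcctaacactgtctggta
miR-30a forward primer: ggcgcgtgtaaacatcctcga
miR-92 forward primer: gcgcttattgcacttgtcccg
miR-30a stem-loop primer: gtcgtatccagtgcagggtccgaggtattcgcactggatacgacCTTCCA
miR-92 stem-loop primer: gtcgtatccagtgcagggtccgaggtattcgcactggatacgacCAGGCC
miR-141 stem-loop primer: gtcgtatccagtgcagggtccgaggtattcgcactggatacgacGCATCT

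The leading miRNAs were largely those of both days, but within the miRNA reads the weight moved from miR-191 to miR-184 and miR-148. MiR-191, a widely expressed miRNA, took 40.4% of the reads at day 35. At day 72 it took 28.0%, and its share was thus 12.4 percentage points lower, a log2 ratio of -0.53 that became 0.43 as percent of all analysed reads. MiR-184, which is known from the lens and cornea and from neural stem cells, took 17.6% and then 24.8%, or 7.22 points more. MiR-148, a regulator of the DNA methyltransferase DNMT1 that is abundant in milk of many mammals, took 5.37% and then 10.6%. The ratio of miR-191 to miR-184 was therefore 2.3 at day 35 and 1.13 at day 72, and together they took 58% and 52.9% of the reads. This move did not continue in the day 120 milk, where miR-191 took 43.8%, miR-184 8.56% and miR-148 8.32%. At days 175 and 250 miR-191 took 9.66% and 15.5%, miR-184 1.45% and 0.133%, and miR-148 14.6% and 9.31%.

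Over the 85 miRNAs, 21.0 points of share were gained and 21.3 lost between the libraries. MiR-191 alone made up 58.3% of the points lost, and miR-184 with miR-148 made up 59% of the points gained. MiR-30a added 2.362 points, miR-141 1.397, miR-204 1.348 and miR-26 0.986. On the side of loss miR-92 followed miR-191 with 1.980 points, and let-7a, miR-10b, let-7f and let-7i with 1.504, 1.390, 1.243 and 0.961 points.

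**Figure D1:**
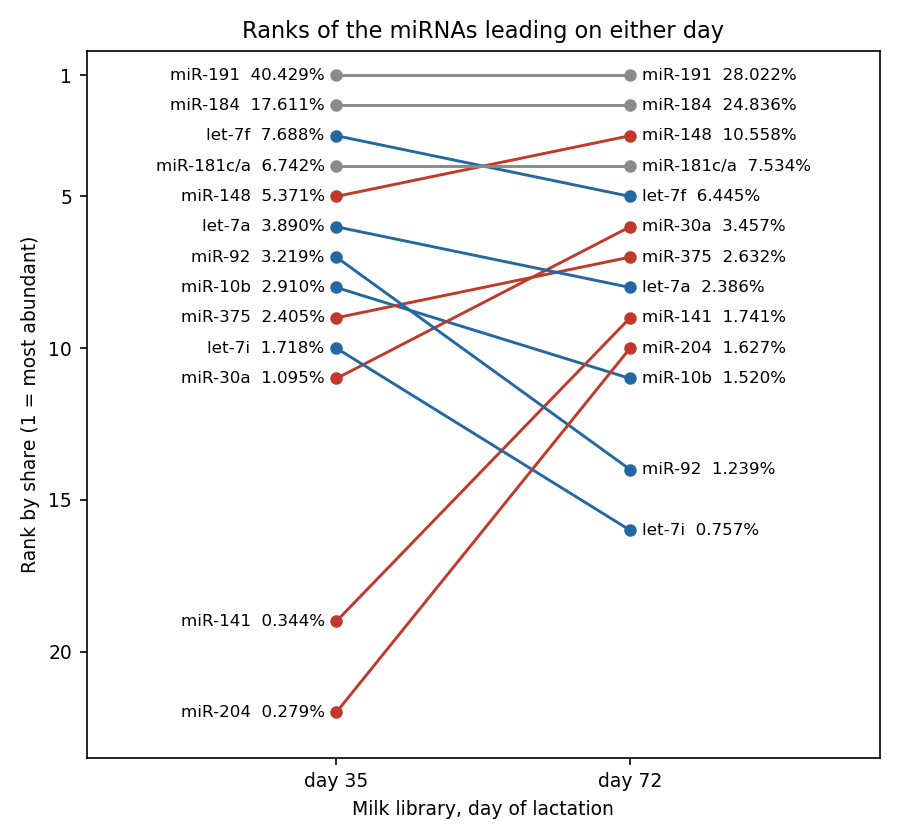
Rank of each miRNA that was among the 10 most abundant in the day 35 or the day 72 milk library (vertical axis, 1 is the most abundant), with its share in percent of annotated miRNA reads beside each point. Lines in red go to a better rank at day 72, lines in blue to a lower one and lines in grey to the same rank. MiR-191, miR-184 and miR-181c/a kept ranks 1, 2 and 4, while miR-204 went from rank 22 to 10 and miR-92 from 7 to 14.

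Of the 10 most abundant miRNAs at day 35, 7 were among the 10 at day 72. MiR-92, miR-10b and let-7i left this group, for ranks 14, 11 and 16. MiR-30a entered it from rank 11 to rank 6, miR-141 from rank 19 to rank 9 and miR-204 from rank 22 to rank 10. MiR-375, a miRNA of endocrine and epithelial secretory cells, took 2.405% and then 2.63% and went from rank 9 to 7. Its log2 ratio of 0.13 became -0.14 with miR-191 left out of the denominators. MiR-181c and miR-181a, which the file gives as a joint entry, took 6.74% and then 7.53% and stayed at rank 4. The effective number of miRNAs, which is the number of equally abundant miRNAs that would give the same Shannon diversity, was 8.43 at day 35 and 9.69 at day 72. With miR-191 left out it was 11.6 at day 35 and 10.3 at day 72, so the order of the days turned.

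A ratio of shares could be formed for the 42 miRNAs that were above 0 in both libraries, all of which had at least 0.005% in the higher one. Of these, 18 were higher and 24 lower at day 72, with a median log2 ratio of -0.22. A difference of at least 2-fold was found for 19 miRNAs. At least 2-fold higher at day 72 were 7 of the 42 (16.7%), namely miR-186, miR-204, miR-27b, miR-141, miR-30a, miR-26 and miR-103. At least 2-fold lower were 12 of the 42 (28.6%), namely miR-122, miR-222a, miR-1549, miR-182, miR-203, miR-25, miR-92, miR-15a, miR-181b, miR-101, let-7i and miR-146b. Each of these 19 passed 2-fold at every value that the rounding allows. In the day 120 milk, with absent entries taken as 0, all 7 of the higher miRNAs had smaller shares than at day 72. Of the 12 lower ones, 7 had larger shares there than at day 72 and 3 smaller, against 19 and 21 of all 42.

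Of the miRNAs past 2-fold, those higher at day 72 thus made up 36.8% on the deposited scale. They made up 55.6%, 10 against 8, when the log ratios were centred on their mean, and 27.3%, 6 against 16, with miR-191 left out of the denominators. As percent of all analysed reads of each library, of which miRNAs were a larger part at day 72 by the figures of the study, they made up 75.0%, 18 against 6. The paper names contamination by tRNA fragments, seen in the day 72 library among others, as a source of variation between libraries. It gives this as a reason to use shares of miRNA reads. Median log2 ratios moved by 0.31, -0.27 and 0.96 under these 3 scalings. Of the 42, 12 changed direction as percent of all analysed reads, among them miR-191, miR-10b, let-7f and let-7a. The order of the 42 ratios is the same under all 3 by construction, since each shifts every log2 ratio by the same amount. Values are given on the deposited scale.

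**Figure D2:**
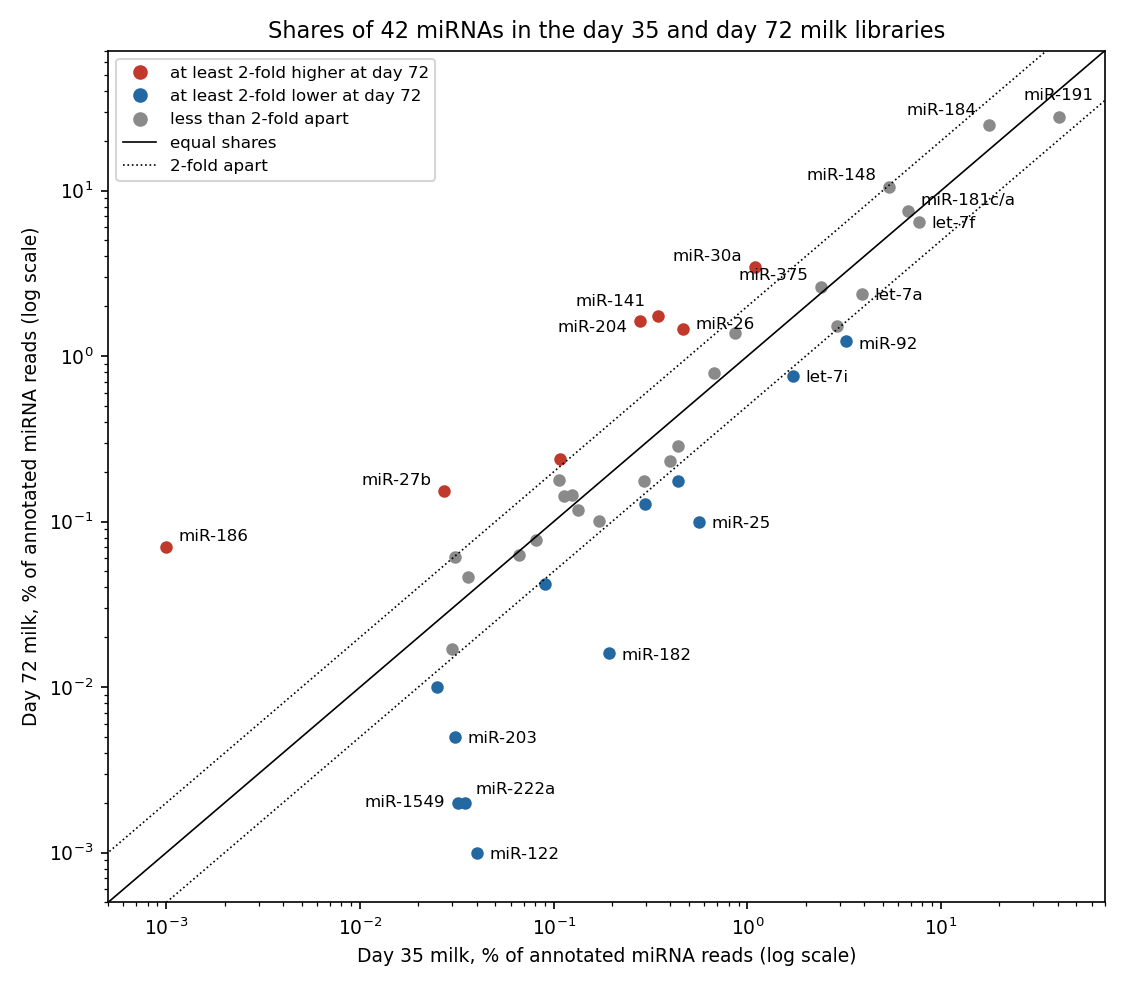
Share of each of the 42 miRNAs above 0 in both libraries at day 35 (horizontal axis) and day 72 (vertical axis), both in percent of annotated miRNA reads on a log scale. Points in red are at least 2-fold higher at day 72 (7 miRNAs), points in blue at least 2-fold lower (12), and the solid and dotted lines mark equal shares and 2-fold differences. Of the 15 miRNAs of at least 1% on either day 6 are at least 2-fold apart, and miR-186, miR-182, miR-122, miR-222a and miR-1549 lie farthest from it.

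Among the miRNAs with larger shares, miR-204 stood out by level and by fold. It is a miRNA of the lens, retina and pigmented epithelia of the eye. Its share was 0.279% at day 35 and 1.63% at day 72, a 5.83-fold difference. The day 120 milk lacked it, the day 175 milk had 0.038% and the day 250 milk listed it at 0, so the day 72 library held the highest of its 5 milk shares. Of the serum libraries, that of day 120 listed it at 0 and that of day 175 lacked it.

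MiR-141, an epithelial miRNA of the miR-200 family, took 0.344% at day 35 and 1.74% at day 72, and was 5.06-fold higher. Its later milk shares were 0.684%, 4.96% and 4.17%, and it took 0.002% and 0.010% in serum. MiR-30a, known for its part in kidney epithelium, took 1.095% and 3.46% and was 3.16-fold higher. In the 3 later milk libraries it took 3.36%, 13.7% and 14.953%. For these miRNAs the day 35 share was the lowest of the 5 milk libraries.

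MiR-26, a repressor of the histone methyltransferase EZH2, took 0.466% and 1.45%, a 3.12-fold difference, and was lower in the later milk libraries, with 0.836%, 0.692% and 0.306%. MiR-103, which acts on insulin sensitivity and shares its seed with miR-107, took 0.108% and 0.238% and was 2.20-fold higher, with 0.124%, 0.086% and 0.022% later. It fell under 2-fold, to a log2 ratio of 0.87, with miR-191 left out of the denominators. The day 72 library thus held the highest milk share of miR-26 and of miR-103. MiR-107 was absent at day 35 and took 0.003% at day 72.

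MiR-27b, a regulator of fat cell differentiation, took 0.027% and then 0.153%, a 5.67-fold difference, and went from rank 40 to 23. MiR-186 was 70-fold higher, with 0.001% at day 35 and 0.070% at day 72, but its day 35 share is the smallest that the file can show. Rounding alone leaves this ratio between 46.3 and 141, and with a pseudocount of 0.01% its log2 value went from 6.13 to 2.86. In the later milk libraries miR-186 took 0.040%, 0.378% and 0.243%, all above the day 35 share.

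MiR-148 and miR-152, which share a seed, lay just under 2-fold and had nearly the same ratio. MiR-148 was 1.97-fold higher at day 72. MiR-152 took 0.031% and 0.061% and was also 1.97-fold higher, between 1.92-fold and 2.02-fold by rounding. The share of miR-148 was 173 times that of miR-152 in both libraries, and this ratio was between 159 and 333 in the later milk.

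**Figure D3:**
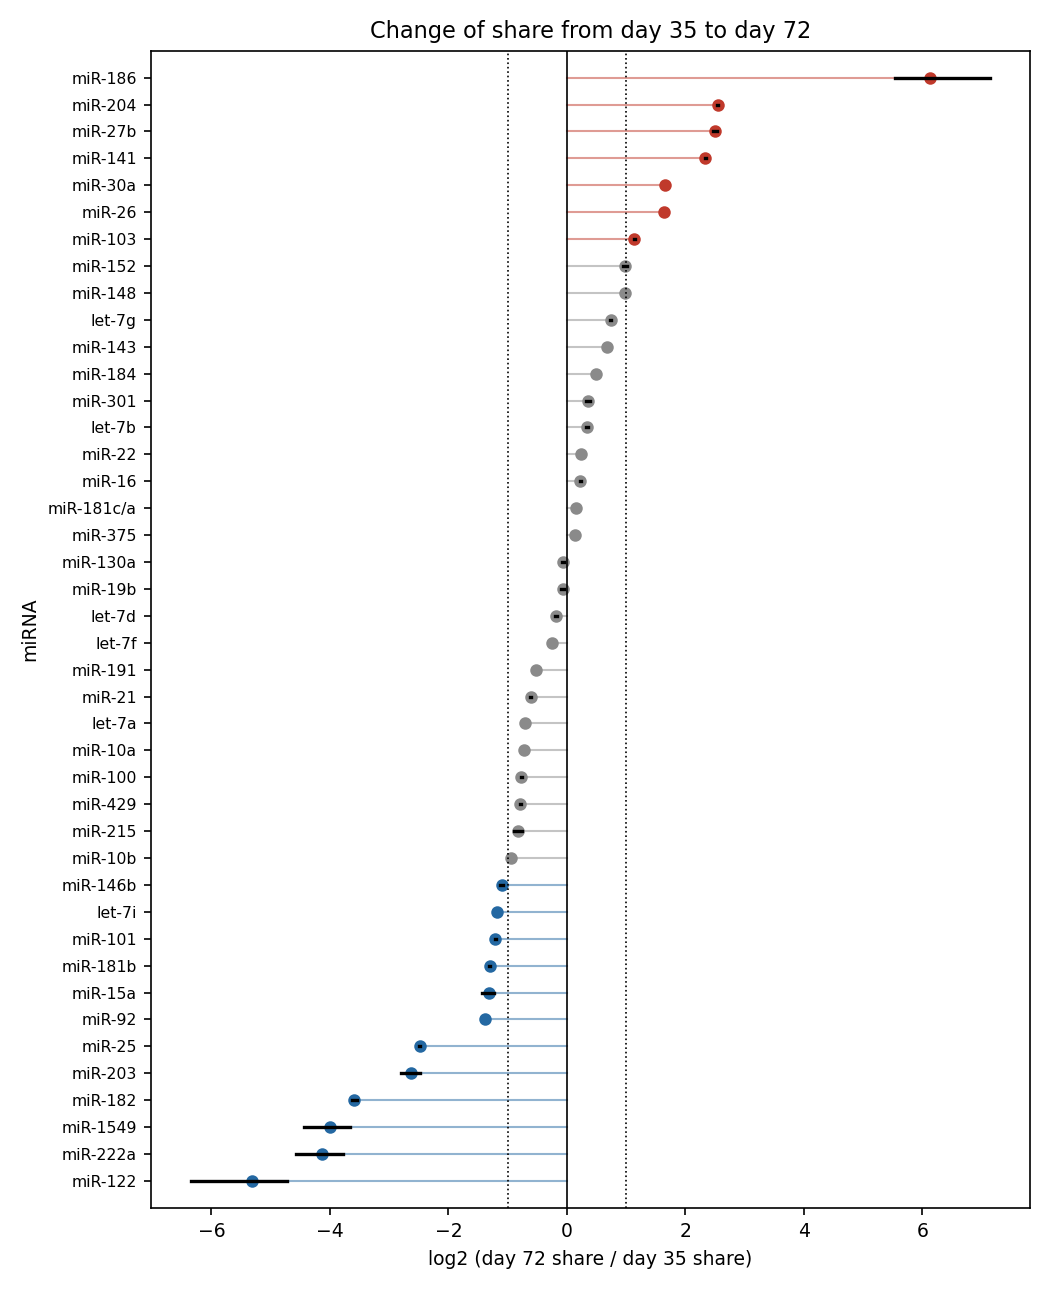
Log2 ratio of the day 72 share to the day 35 share for each of the 42 miRNAs above 0 in both milk libraries, in order of the ratio. Black bars are the range that rounding of the shares allows, not replicate error, and dotted lines mark 2-fold. The bars are longest for miR-186 and miR-122, which have a share of 0.001% on 1 of the days, and 18 miRNAs lie right of 0 and 24 left of it.

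The largest differences toward lower shares at day 72 were of miRNAs with small shares. MiR-122, the miRNA of hepatocytes, took 0.040% at day 35 and 0.001% at day 72, a 40-fold lower share, or between 26.3-fold and 81-fold by rounding. It took 0.008%, 0.002% and 0.005% in the later milk libraries, and 0.096% and 0.009% in serum. MiR-222a, an inhibitor of the cell cycle brake p27, took 0.035% and then 0.002%, and was 17.5-fold lower. Its later milk shares were 0.002%, 0.002% and 0.003%. MiR-1549, a miRNA first described outside placental mammals, took 0.032% and 0.002% and was 16-fold lower. The day 35 library held the highest of the 5 milk shares of each of these 3 miRNAs, which the study itself singled out on these libraries. With a pseudocount of 0.01% the log2 ratio of miR-122 went from -5.32 to -2.18, that of miR-222a from -4.13 to -1.91 and that of miR-1549 became -1.81.

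MiR-182, a miRNA of sensory and epithelial cells, took 0.192% at day 35 and 0.016% at day 72, a 12-fold lower share, and lost 20 ranks. In the later milk libraries it took 0.057%, 0.247% and 0.005%. The others of its cluster could not be compared, as miR-183 was listed at 0 at day 35 and took 0.002% at day 72, and miR-96 was absent and then listed at 0. MiR-203, a miRNA of keratinocytes, took 0.031% and 0.005%, and was 6.2-fold lower.

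MiR-25 took 0.56% at day 35 and 0.1% at day 72, a 5.6-fold lower share, and went from rank 14 to 30. MiR-92, of the same seed, took 3.22% and 1.24% and was 2.60-fold lower, but under 2-fold (log2 -0.41) as percent of all analysed reads. Both belong to the miR-17-92 family and its relatives, clusters that drive proliferation. Of the 15 names on that list 6 were listed, and of the 3 compared 0 were at least 2-fold higher and 2 at least 2-fold lower, against 16.7% and 28.6% of all 42. The third, miR-19b, took 0.081% and 0.077%. MiR-19a was absent at day 35 and took 0.038% at day 72, although it shares its seed with miR-19b. The list together took 3.86% at day 35 and 1.46% at day 72, and most of this was miR-92.

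The let-7 family, which times the end of proliferation in development, had a summed share of 13.6% at day 35 and 10.027% at day 72. Of its 6 listed members, 0 were at least 2-fold higher and 1 was at least 2-fold lower, which is near the 16.7% and 28.6% of all 42. This was let-7i, which took 1.72% and 0.757% and was 2.27-fold lower. Let-7f took 7.69% and 6.45%, and let-7a 3.89% and 2.39%. Let-7g, with 0.107% and 0.179%, and let-7b, with 0.113% and 0.143%, were the 2 members with larger shares. The family's median log2 ratio of -0.22 was that of all 42, and it became 0.74 as percent of all analysed reads and 0.09 on the centred log scale. Let-7i was under 2-fold on these scales, with log2 ratios of -0.22 and -0.88, and let-7g was past 2-fold higher on both. Reads of let-7 members could be split among them by the counting.

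The epithelial miR-200 family, which holds cells in the epithelial state by repressing ZEB1 and ZEB2, took 0.742% at day 35 and 2.14% at day 72. At day 35 miR-429 was the larger member and miR-141 the second, while at day 72 miR-141 made up most of the sum. MiR-200b was listed at 0 and then took 0.138%, and miR-200c was absent and then took 0.033%. MiR-429 went the other way, with 0.398% and 0.231%, although it is transcribed with miR-200b in other mammals. Its log2 ratio of -0.78 became 0.18 as percent of all analysed reads, so its direction turned on that scale. The ratio of miR-141 to miR-429 was 0.864 at day 35 and 7.54 at day 72, and in the later milk libraries 1.37, 3.61 and 20.3. Of the 2 members compared, 1 was at least 2-fold higher and 0 at least 2-fold lower, against 16.7% and 28.6% of all 42.

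Among the miR-10 relatives, miRNAs of the HOX clusters and of the miR-100 seed, all 3 compared were lower at day 72, as were 24 of all 42, and 0 were past 2-fold, against 28.6% of all 42 that were at least 2-fold lower. MiR-10b took 2.91% and 1.52%, miR-10a 0.292% and 0.177%, and miR-100 0.172% and 0.101%. The ratio of miR-10b to miR-10a changed little, from 9.97 to 8.59. Their median log2 ratio was -0.77, against -0.22 over all 42, and it became 0.20 as percent of all analysed reads. With miR-191 left out of the denominators 2 of the 3 passed 2-fold lower, miR-10b with a log2 ratio of -1.21 and miR-100 with -1.04. MiR-10b was the most abundant miRNA of serum, where the list took 76.8% at day 120 and 66.5% at day 175, while it took 3.37% and 1.80% in milk of days 35 and 72.

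The miR-181 seed family, which is known from lymphocyte development, took 7.18% at day 35 and 7.71% at day 72. Its entries differed in direction on the deposited scale. MiR-181b took 0.437% and 0.177% and was 2.47-fold lower, while the joint entry had a larger later share, a log2 ratio of 0.16. Once miR-191 was dropped from the denominators the joint entry turned to -0.11, so both entries were then lower. Dropping miR-184 as well gave it -0.01. The entries still differed in direction on the centred log scale and as percent of all analysed reads. There miR-181b was under 2-fold, with log2 ratios of -0.998 and -0.34. The ratio of the joint entry to miR-181b was 15.4 and then 42.6, and between 20.1 and 28.4 in the later milk. In the miR-15/16 family, whose known targets include BCL2, miR-15a took 0.025% and 0.010% and was 2.5-fold lower, and miR-16 took 0.124% and 0.145%. MiR-195 and miR-497 of the same family were absent at day 35 and took 0.005% and 0.001% at day 72.

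MiR-146b, which damps NF-kB signalling, took 0.090% and 0.042% and was 2.14-fold lower, while miR-146a, of the same seed, was listed at 0 and then took 0.028%. MiR-146b fell under 2-fold on the centred log scale (log2 -0.79), as percent of all analysed reads (-0.14) and with a pseudocount of 0.01% (-0.94). MiR-21, a miRNA of inflammation and growth, took 0.438% and 0.287%. MiR-101, another repressor of EZH2, took 0.296% and 0.128% and was 2.31-fold lower, opposite to miR-26. It fell under 2-fold on the centred log scale (log2 -0.90) and as percent of all analysed reads (-0.25). Of the immune list, 2 of 7 were compared, with 0 higher and 1 lower by at least 2-fold, against 16.7% and 28.6% of all 42.

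The markers of blood cells and striated muscle were at or near 0 in both libraries, while the liver marker miR-122 was above 0 as given before. Of the 4 red cell names, miR-451 was absent at day 35 and took 0.002% at day 72, miR-144 was absent and then listed at 0, and the others were absent. Of the 4 leukocyte names only miR-223 was listed, at 0 on both days. Of the 5 muscle names only miR-133a was listed, at 0 at day 72. In serum the red cell list took 0.042% and 0.055% and the leukocyte list 0.041% and 0.120%. The vascular and stromal list of 9 names, of which 7 were listed, summed to 0.900% at day 35 and 1.397% at day 72, against 1.49% and 1.17% in serum. Nearly all of this in milk was miR-143, a miRNA of smooth muscle and mesenchyme, which took 0.865% at day 35 and 1.385% at day 72. Its part in the other results was not tested. The endothelial miR-126 was absent and then took 0.001%, and miR-145, which is transcribed with miR-143 in other mammals, was absent and then listed at 0. The mammary and epithelial list summed to 27.7% at day 35 and 43.9% at day 72, against 2.20% and 2.19% in serum. The paper lists its members miR-184, miR-148, miR-30a, miR-141 and miR-375 as milk enriched over these same serum libraries. The contrast with serum is thus not an independent result. The main members of the list were miR-184, with 17.6% and 24.8%, which is also on the list of eye and neural miRNAs, and miR-148. Of the 8 members compared 2 were at least 2-fold higher and 1 was at least 2-fold lower, against 16.7% and 28.6% of all 42. The median log2 ratio of the 8 was 0.31, and 3 of them, miR-429, miR-203 and miR-21, had smaller shares at day 72.

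All 48 miRNAs listed at day 35 were also listed at day 72, and 0 were lost. The study counts somewhat more known miRNAs in both libraries than are listed here, so miRNAs not analysed here may add to the gained or the lost. A further 37 were listed at day 72 and absent at day 35. Of these 10 were at 0 at day 72, 19 took 0.001% to 0.004%, and 8 took at least 0.005%. The 37 together took 0.191% of miRNA reads at day 72. Another 5 were listed at 0 at day 35 and above 0 at day 72, and together took 0.18%.

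The 12 miRNAs that reached 0.005% at day 72 from absence or 0 were led by miR-200b with 0.138%. MiR-19a followed with 0.038%, miR-200c with 0.033%, miR-146a with 0.028%, and miR-128, a miRNA abundant in brain, with 0.027%. MiR-23a took 0.021%, and miR-27a, which is transcribed with it, 0.013%. MiR-340 took 0.016%, miR-221 and miR-125b 0.006% each, and miR-195 and the epithelial progenitor miRNA miR-205a 0.005% each. MiR-221 and miR-222a are neighbours in other mammals, but here miR-221 went from 0 to 0.006% while miR-222a went from 0.035% to 0.002%. MiR-195 was listed in no other library of the series, nor were miR-199b and miR-33, both at 0.

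Some of the 12 stayed at a like level in later milk and others did not. MiR-200c took 0.033%, 0.039% and 0.046% in the 3 later milk libraries, and miR-128 took 0.031%, 0.026% and 0.036%. MiR-146a took 0.082%, 0.132% and 0.153%. MiR-19a took 0.004%, 0.105% and 0.004%, and miR-23a took 0.009%, 0.008% and 0.003%. Of the 37 miRNAs absent at day 35, the milk libraries of days 120, 175 and 250 listed 11, 28 and 29, and 24 were listed in a serum library.

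**Figure D4:**
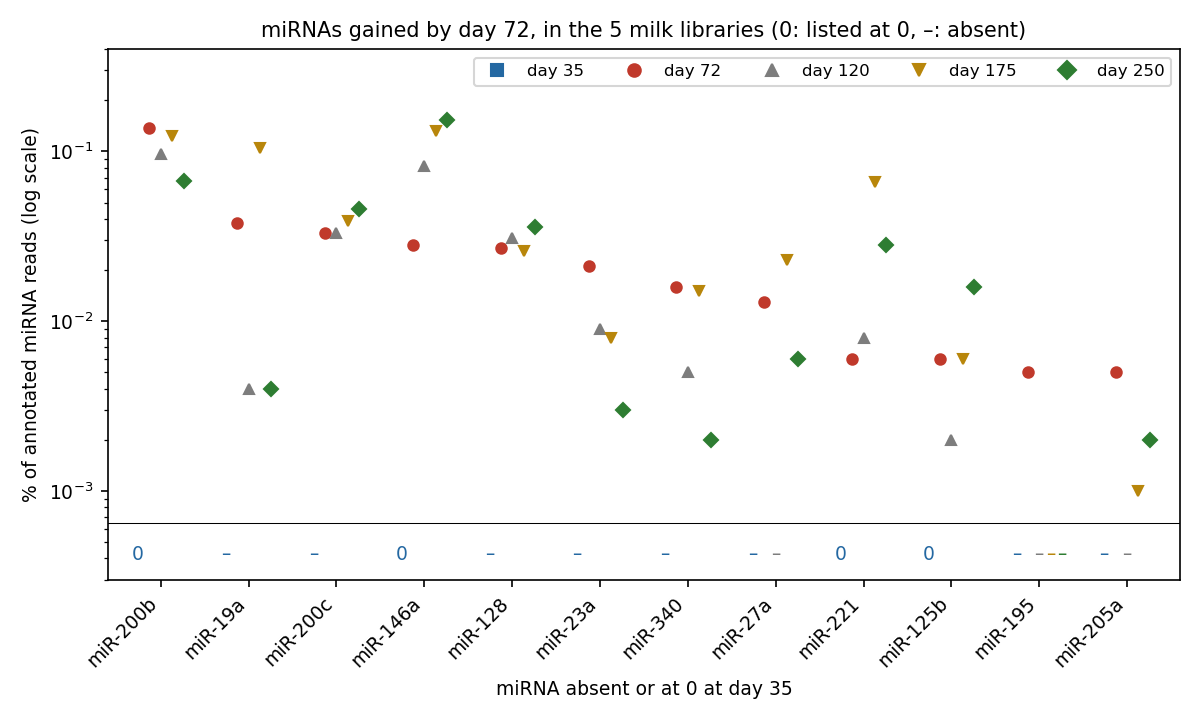
Shares of the 12 miRNAs that were absent or at 0 at day 35 and took at least 0.005% at day 72, in each of the 5 milk libraries, in percent of annotated miRNA reads on a log scale. Below the line, 0 is an entry listed at 0 and a dash an absent one, and each library has its own symbol. MiR-200b leads at day 72 with 0.138%, and miR-195 has a value at day 72 alone.

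The lower end of the 2 libraries had a different form, and the count of gained miRNAs rests on it. At day 35 the miRNAs above 0 took 0.025% or more, with the single exception of miR-186 at 0.001%, and 0 miRNAs had a share from 0.002% to 0.024%. At day 72 this range held 21 miRNAs, and 17, 24 and 22 in the milk libraries of days 120, 175 and 250. A further 13 miRNAs had 0.001% at day 72, against 1 at day 35. MiR-122, miR-222a, miR-1549, miR-203 and miR-15a, which were lower at day 72, had day 35 shares from 0.025% to 0.040%, near the lower end of that library. Of the 7 compared miRNAs under 0.05% on both days, 5 were at least 2-fold lower at day 72 and 0 at least 2-fold higher. Without these 7, as many miRNAs were at least 2-fold higher as lower, 7 each.

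With a limit of 0.025%, set after these shares were seen, 41 miRNAs were counted at day 35 and 40 at day 72. Then 6 were gained, namely miR-200b, miR-186, miR-19a, miR-200c, miR-146a and miR-128, and 7 lost, namely miR-182, miR-122, miR-222a, miR-1549, miR-203, miR-215 and miR-15a. The limit lies at the lower end of the day 35 library, so these counts depend on it, and at 0.005% 13 were gained and 3 lost. Whether the depth of the libraries or a filter set the form of the lower end was not tested.

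**Figure D5:**
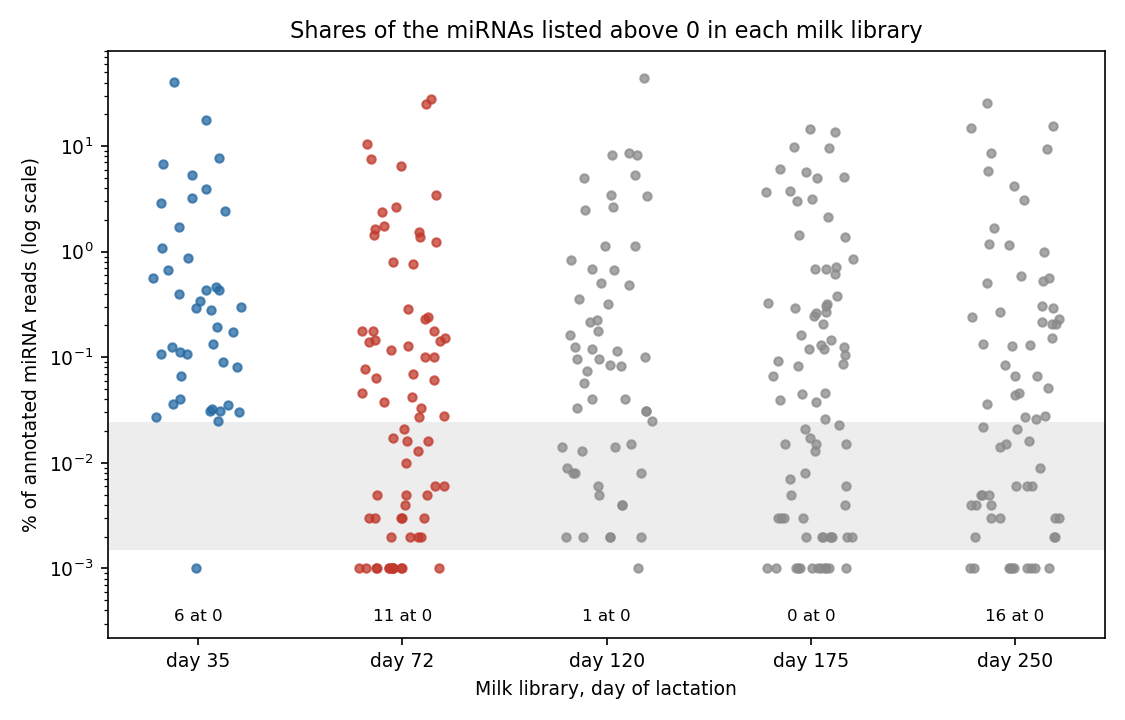
Share of every miRNA above 0 in each of the 5 milk libraries, in percent of annotated miRNA reads on a log scale, with the number of entries listed at 0 written below. The points are spread sideways for sight alone, and the grey band marks the range from 0.002% to 0.024%, which holds 0 miRNAs at day 35 and 21 at day 72.

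Beside the later steps of lactation, the change within phase 2A moved the least share and had the highest Pearson correlation of shares. Counted over every listed entry, it had the lowest rank correlation and the most gained miRNAs. The summed share differences, counted once for gain and loss, came to 21.2 points from day 35 to day 72, against 26.7, 41.6 and 28.7 points over the steps to days 120, 175 and 250. These steps span different numbers of days and share libraries with one another. Over the 42 miRNAs compared, the median difference was 0.956 on the log2 scale without its sign, against 1.01, 1.56 and 1.36 over 50, 55 and 56 miRNAs in the later steps. At least 2-fold higher were 16.7% in the first step and 30%, 47.3% and 12.5% in the later ones, and at least 2-fold lower were 28.6%, and then 22%, 12.7% and 46.4%. The Spearman correlation of the 2 libraries over the 85, 86, 83 and 91 miRNAs listed in either, which are not independent replicates, with absent ones taken as 0, was 0.852 in the first step and 0.867, 0.913 and 0.908 in the later ones. It thus takes in the miRNAs gained, which numbered 37, and then 1, 25 and 10, while 0, 28, 2 and 5 were no longer listed. The 37 rest on the lower end of the day 35 library, and became 13 at a limit of 0.005% and 6 at 0.025%. Gains at these limits were not counted for the later steps. Over the 42 miRNAs compared, the rank correlation of the first step was 0.863. It was not computed in this way for the later steps, so their order is known only over every listed entry. Pearson's r over all miRNAs listed in either library was 0.936, and then 0.855, 0.571 and 0.832. Each step compares single libraries, so none of these differences between steps could be tested.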

How the data were processed

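Small RNA from pooled skim milk was sequenced by the authors on an Illumina HiSeq, cleaned of adaptors, and aligned with miRanalyzer to known miRNAs of miRBase. The deposited unit is percent, the reads of each miRNA divided by all annotated miRNA reads of its library, rounded by the authors to 3 decimals. All 7 columns were matched to samples by title. From the percent values shares, ranks, ratios and sums over families were computed with Python 3.11.15, numpy 2.4.6 and scipy 1.17.1, and figures with matplotlib 3.10.9. Ratios were taken without a pseudocount, for miRNAs above 0 in both libraries with at least 0.005% in the higher, and 2-fold was the threshold. The ratio code was tested on simulated data. With 1 library a day no test was possible. Tied shares were given the better rank.

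The miRNAs named are the 10 most abundant of either library, the 6 largest differences in each direction, all 12 that reached 0.005% from absence or 0, miR-223 as the only miRNA listed at day 35 that was absent or at 0 at day 72, and members of the families described. Others were named because they were past 2-fold, had primers, were listed at day 72 alone, or entered a count under another setting. The miRNAs and lists were chosen with earlier results of these data known. The alternatives were other denominators, pseudocounts, minimum shares and thresholds, and the part of all analysed reads that miRNAs took was copied from the study. Predicted miRNAs were not analysed here.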

Additional observations from a re-analysis of the deposited data

How the results depend on the processing

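No paired analysis was possible because each day has 1 library and the labels give no replicate numbers. A change by more than a factor of 1.5 was counted as a move, since there is no spread between replicates. The number of miRNAs at least 2-fold higher at day 72, 7, became 18 as percent of all analysed reads, 11 at a threshold of 1.5-fold and 4 at 4-fold. The number at least 2-fold lower, 12, became 6 as percent of all analysed reads, 7 with a minimum of 0.05%, 19 at 1.5-fold and 6 at 4-fold. As percent of all analysed reads 30 miRNAs were higher and 12 lower, against 18 and 24 as deposited, and the median log2 ratio became 0.74. This follows from the construction, as that scaling adds 0.96 to every log2 ratio. Counted over entries of at least 0.005%, 13 miRNAs were gained and 3 lost, and over entries of at least 0.025%, chosen after the data were examined, 6 were gained and 7 lost, against 37 and 0 as listed. Of the 19 miRNAs past 2-fold 0 changed direction under any scaling or pseudocount tried, but this too follows from the construction. Each scaling shifts every log2 ratio by the same amount, at most 0.96, and a pseudocount cannot turn a ratio. Calls were lost, however. MiR-103 fell under 2-fold with miR-191, or miR-191 and miR-184, left out of the denominators (log2 0.87 and 0.97). MiR-146b and miR-15a did so with a pseudocount of 0.01% (-0.94 and -0.81), and let-7i, miR-101, miR-181b and miR-146b on the centred log ratio. These 4, miR-92 and miR-15a fell under 2-fold as percent of all analysed reads, where 12 of the 42 changed direction, miR-191 among them. Calls were also gained: miR-10b, miR-215, miR-429 and miR-100 became at least 2-fold lower with miR-191 left out (miR-10b also with miR-184 left out too), and miR-148, miR-152 and let-7g at least 2-fold higher on the centred log ratio. A pseudocount of 0.01% also moved 6 miRNAs with small shares by over 1.5-fold, namely miR-186, miR-122, miR-222a, miR-1549, miR-182 and miR-203, to log2 ratios from -2.96 to 2.86. The summed share differences and the sums of the 10 most abundant stayed within a factor of 1.5 when shares were rescaled to 100 or miR-191 was left out. So did the effective number of miRNAs on each day, but its order turned with miR-191 left out, to 11.6 at day 35 and 10.3 at day 72. Rounding, and the lack of read counts beside the deposited shares, limit the values near 0.001%.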
